A study of Mus musculus with 2 samples.

Results

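Naive-like CD8 T cells were examined in single-cell RNA data of gingival immune infiltrate, from a study of experimental periodontitis in C57BL/6 mice. The series held 2 droplet libraries made with the 10x Genomics 3′ chemistry, 1 from wild-type (WT) mice and 1 from mice labelled Otud1-/-. OTUD1 strips ubiquitin tags off its target proteins. The sources used here do not give the animals pooled per library, their age or sex, how the deletion was made, or how each group was treated.

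Members were chosen by measured transcripts of the same cells, counted as unique molecular identifiers (UMIs, 1 per captured transcript). A kept barcode had 200 or more genes detected and no more than 15% of its UMIs from mitochondrial genes. A member had at least 3 UMIs of the T cell receptor complex genes Cd3e, Cd3d, Cd3g and Trac together, at least 1 UMI of Cd8b1, none of Foxp3, and at most 1 of the effector genes Gzmk, Gzmb, Nkg7 and Ccl5 together. The rule found 298 members among 19705 kept barcodes. The WT library gave 200 of 12769, and the library labelled Otud1-/- gave 98 of 6936. The 10 genes of the rule describe the choice and are not findings.

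Naive CD8 T cells are mature killer-lineage T cells that have not yet met their antigen. They circulate through lymphoid organs, which they enter with the help of the chemokine receptor CCR7 and leave through the sphingosine phosphate receptor S1PR1. The transcription factors TCF1 (gene Tcf7) and LEF1 maintain this state, and interleukin 7 keeps the cells alive. After antigen contact the cells divide, switch these genes off and turn on granzymes and chemokines.

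With 1 library per genotype there is no replicate check, and no test was run. All intervals are exact 95% intervals that cover counting error only. Levels are UMIs summed over the cells of a group and given per 1000000 of that group's UMIs (CPM). The libraries held 13267 and 8109 barcodes and shared 37 barcode sequences, none of them between members. The members held 1354064 UMIs in WT and 769526 in the other library, with a median of 4934 and 5912 UMIs per cell and 1690 and 1728.5 genes.

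The targeted gene did not follow its label. Otud1 had 23 UMIs in WT members, or 17.0 CPM (10.8 to 25.5), and 29 UMIs in members of the library labelled Otud1-/-, or 37.7 CPM (25.2 to 54.1). The ratio was 2.22 (1.24 to 4.02), and over all kept barcodes it was 1.81. A 3′ tag outside the deleted part would not check the label. The genotype names below are therefore the labels' names, and a direction between the libraries rests on those labels.

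Lef1, Tcf7 and Dapl1, markers of naive CD8 T cells, were above their level in B cells, which were kept barcodes with at least 3 UMIs of Cd79a, Cd79b and Ms4a1 together and none of the T cell receptor complex genes. Lef1 stood at 363 CPM (331 to 396) in WT members and at 378 CPM (336 to 424) in the library labelled Otud1-/-, against 14.2 and 6.82 CPM in B cells. It had a UMI in 75.5% of WT members and 88.8% of the others, against 4.50% and 3.44% of B cells, which do not use it. Lef1 lies on chromosome 3 from 131110471 to 131224356, forward strand (build mm10, GENCODE vM21 annotation). Tcf7, on chromosome 11 from 52252371 to 52283014, reverse strand, stood at 107 CPM in WT members and 138 CPM in the others, against 6.54 and 1.72 CPM in B cells. Dapl1, a small gene used as a marker of naive CD8 T cells (chromosome 2, 59484653 to 59505020, forward strand), stood at 98.2 and 107 CPM, against 2.85 and 0.161 CPM. Cd8a, the partner chain of the Cd8b1 co-receptor, was not in the rule and had a UMI in 37.5% of WT members and 44.9% of the others, against 1.67% and 1.01% of B cells. The median depth of the B cells was lower, at 2918.5 and 4098.5 UMIs.

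**Figure D1:**
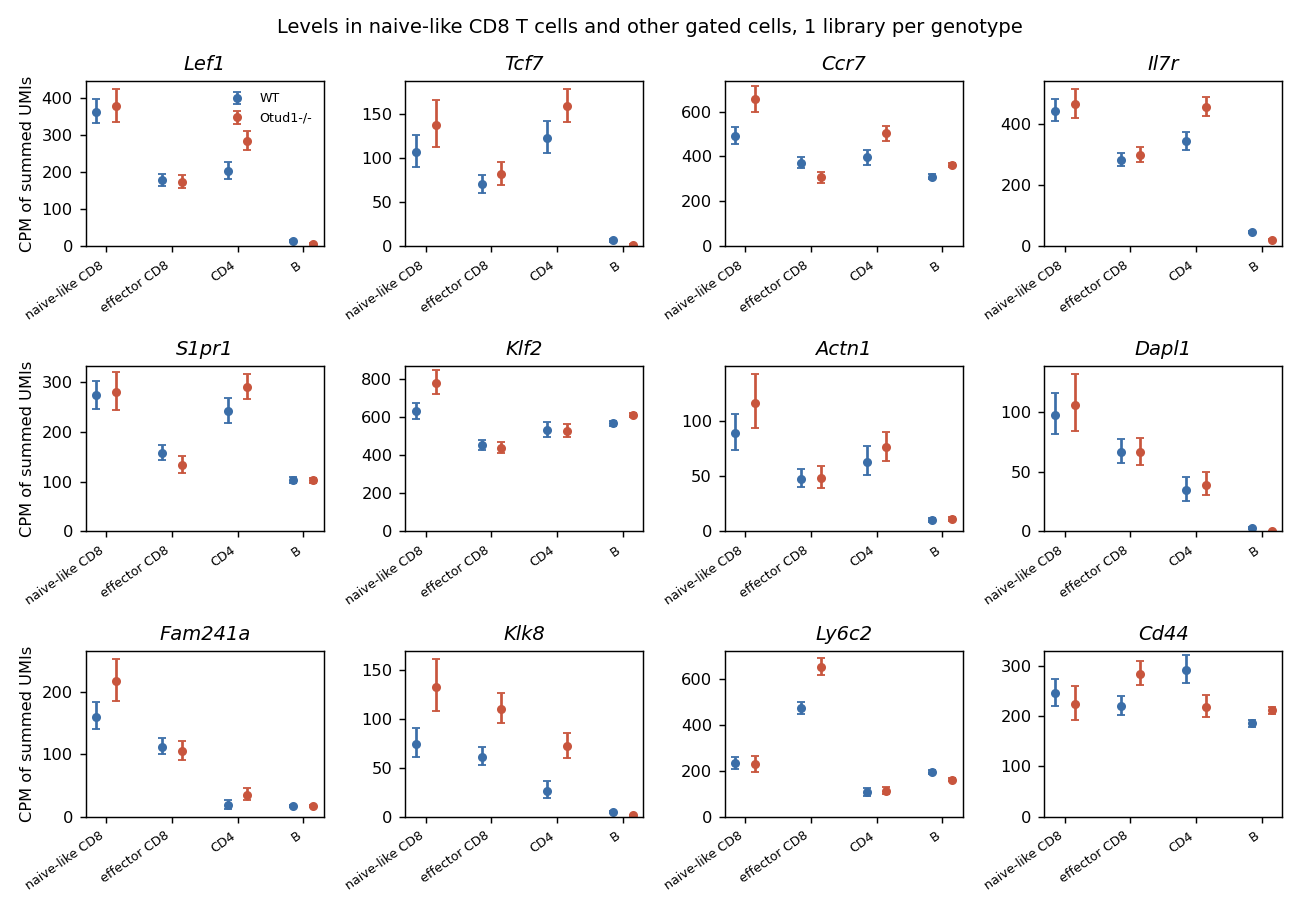
Level of 12 genes (vertical axis, CPM of summed UMIs, linear from 0) in naive-like CD8, effector CD8, CD4 and B cells, with WT in blue and the library labelled Otud1-/- in red. Points are 1 library each and bars are exact 95% counting intervals. Lef1 is highest in the naive-like CD8 cells of both libraries and near 0 in B cells, whereas Ccr7 and Klf2 are well above 0 in B cells too.

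Single members varied. Of the naive genes Lef1, Tcf7 and Ccr7, all 3 were seen in 63 of 200 WT members (31.5%, 25.1 to 38.4) and 49 of 98 others (39.7 to 60.3), and none in 13 and 3 cells. Ccr7 is also a B cell gene, with a UMI in 49.1% of WT B cells, so a UMI of it alone marks no naive T cell. Depth differed between the libraries, so each cell was thinned to 1000 UMIs. Then 2 or more of the naive genes were seen in 17.6% of WT members (12.6 to 23.6) and 28.6% of the others (19.9 to 38.6), with 1 and 0 shallower cells left out. The share with none was 42.2% (35.3 to 49.4) against 27.6% (19.0 to 37.5). Both pairs of intervals overlapped, which is no test of a difference and does not show that the shares were equal. At 1500 UMIs the share with 2 or more was 29.3% (23.1 to 36.2) and 44.3% (34.2 to 54.8), and the share with none 28.8% and 22.7%. In effector CD8 T cells at 1000 UMIs the share with none was 63.9% and 66.0%. Genes of antigen-experienced cells were common too: S100a4, S100a6, Lgals1 or Crip1 had a UMI at 1000 UMIs in 61.8% of WT members (54.7 to 68.6) and 47 of 98 others (37.8 to 58.3). The shares were 83.9% and 69.1% in effector CD8 cells and 67.4% and 51.5% in CD4 cells.

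**Figure D2:**
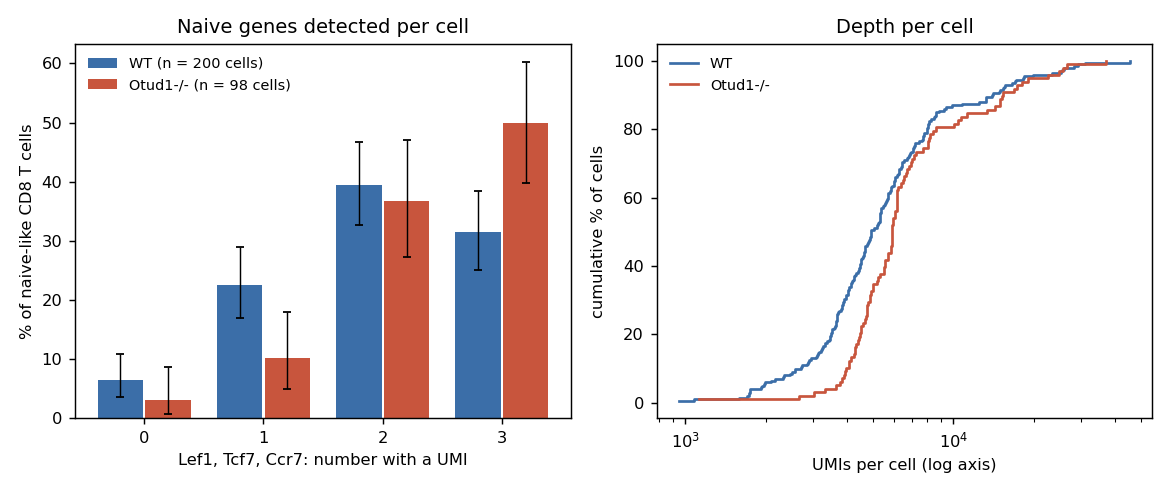
Left, share of naive-like CD8 T cells (vertical axis, percent) by how many of Lef1, Tcf7 and Ccr7 had a UMI, with exact 95% counting intervals, for 200 WT cells (blue) and 98 cells of the library labelled Otud1-/- (red). Right, cumulative share of the same cells by UMIs per cell on a log axis. Cells with 2 or 3 of the genes are the larger part in both libraries, and the red depth curve lies to the right of the blue one over most of its range.

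The rule's thresholds cut through a continuum. Lef1 had a UMI in 73.0% of WT cells with an effector sum of 1, just inside, and in 69.6% of the 46 WT cells with a sum of 2, just outside. In the library labelled Otud1-/- these shares were 89.4% and 90.6% (32 cells outside). At the T cell receptor threshold, Lef1 was seen in 48.7% of the 39 WT cells with a sum of 3 and in 36.7% of the 60 with a sum of 2. Exactly 1 Cd8b1 UMI carried 113 of 200 WT members and 37 of 98 others.

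Transcripts of other cell types were present in the members. The B cell gene Cd79a had a UMI in 46.5% of WT members and 33.7% of the others, the myeloid gene Lyz2 in 45.5% and 29.6%, and the neutrophil gene S100a8 in 27.0% and 38.8%. Summed over 6 markers each, all 6 detected in both libraries, B cell genes stood at 1196 and 891 CPM, monocyte and macrophage genes at 1917 and 711 CPM, and neutrophil genes at 2876 and 5004 CPM. The neutrophil sum ranged from 0 to 92277 CPM among WT members and from 0 to 101353 CPM among the others. Of 5 NK cell markers, Ncr1, Klrb1c and Klra4 were at 0 in both libraries. The gamma delta T cell gene Trdc was seen in 7 and 3 members, and Cd4 in 27 and 11. A simulation of doublets, barcodes that hold more than 1 cell, gave high scores to 46 of 200 WT members and 22 of 98 others. Over all kept barcodes it gave them to 1408 of 12769 in WT and 526 of 6936 in the other library. The share was thus larger among members than among kept barcodes in both libraries. The part of the high-scoring members in the library differences was not tested. The counts between libraries below are also given without them.

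The animals behind the WT library were of both sexes by their transcripts. Xist without a Y-linked transcript was seen in 55 WT members, Y-linked transcripts without Xist in 44, both in 46 and neither in 55. In the library labelled Otud1-/- 78 members had Y-linked transcripts, 20 had neither and 0 had a Xist UMI, which allows up to 3.06% of cells with one (3 cells of the total). Members with both kinds were deeper, with a median of 7852 UMIs, and held 538902 of the 1354064 UMIs of WT members. In them Lef1 stood at 221 CPM, Cst3 at 1728 CPM and Cybb at 375 CPM. Cst3 stood at 842 CPM in Xist-only and 758 CPM in Y-only WT members, and Cybb at 149 and 222 CPM. The WT levels over all members include the cells with both kinds, and their part in the library differences was not tested. Between the Xist-only and the Y-only WT members, Lef1 stood at 468 and 480 CPM, Ccr7 at 593 and 540 CPM, and Tcf7 at 149 and 107 CPM. The share of cells with 2 or 3 of the naive genes was 72.7% (59.0 to 83.9) in the first and 33 of 44 cells (59.7 to 86.8) in the second. S100a4 stood at 207 and 492 CPM and Ctsw at 12.2 and 55.6 CPM in the same 2 sets, which come from 1 library.

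Receptor use was broad as far as it could be read. A beta chain variable segment had a UMI in 29 WT members and 18 others, spread over 16 and 11 of the 35 segments listed. The most frequent segment was in 4 and 3 cells. Trbc1 was seen in 61.0% and 60.2% of members and Trbc2 in 89.0% and 95.9%. Most members had no variable segment UMI, so clones could not be followed at this depth.

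Naive-like members made up 1.57% of kept WT barcodes (1.36 to 1.80) and 1.41% in the library labelled Otud1-/- (1.15 to 1.72). Among T cells they were 8.32% of 2405 (7.24 to 9.49) and 8.61% of 1138 (7.05 to 10.4). Among Cd8b1-positive, Foxp3-negative T cells they were 41.0% of 488 (36.6 to 45.5) and 34.3% of 286 (28.8 to 40.1). The intervals overlapped for each denominator. Overlap of separate intervals is no test of a difference and does not show that the shares were equal. The members' median depth differed between the libraries, as given above, and the rule counts UMIs without regard to depth.

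Against effector CD8 T cells of the same library, the members had higher levels of Lef1, S1pr1, Il7r, Bcl2 and Actn1 and lower levels of the cathepsin genes Ctsw and Ctsc and of Ly6c2. Effector cells had 2 or more UMIs of the 4 effector genes and numbered 288 in WT and 188 in the other library. The rule drew this contrast, so its values describe the members and support nothing further. A gene was compared with a mean of at least 50 CPM and at least 50 UMIs in the higher group, and was counted at a 1.5-fold difference. Log2 ratios were formed with 0.5 CPM added to each level. In WT 35 of 2693 genes (1.3%) were higher in members and 109 (4.05%) lower, 5.35% either way. In the library labelled Otud1-/- 87 of 2429 (3.58%) were higher and 208 (8.56%) lower, 12.1% either way. Of the 2321 genes compared in both libraries, 16 were higher in both, which is 59.3% of the 27 WT genes and 22.2% of the 72 others. Lower in both were 43, of 78 in WT and 200 in the other library. Of the lower WT genes 2 went the opposite way there.

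Lef1 had the highest WT ratio of the genes named here. It stood at 363 CPM in WT members against 179 CPM in effector cells, and at 378 against 174 CPM in the other library, log2 ratios of 1.02 and 1.12. Tcf7 had log2 ratios of 0.60 and 0.74, although among WT cells with Y-linked and no Xist transcripts the value was −0.20. Klf2, a factor that drives S1pr1, had 0.48 and 0.83, and Satb1, a chromatin organiser of T cells, had 0.39 and 0.66. Of 18 compared genes of the naive and quiescence factor list, 3 were at least 1.5-fold higher in WT and 6 in the other library, and none was lower. The list's median log2 ratio was 0.22 and 0.28, against −0.04 and −0.08 over all genes compared.

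The receptors for circulation followed the same order in both libraries. S1pr1 stood at 273 CPM in WT members against 158 CPM, and at 281 against 134 CPM, log2 ratios of 0.79 and 1.07. Ccr7 had 0.40 and 1.09. Il7r, the interleukin 7 receptor, stood at 445 against 284 CPM and at 467 against 300 CPM, log2 ratios of 0.65 and 0.64. Bcl2, the survival factor, had 0.60 and 0.77. Integrin genes had the other sign. Itgb1 stood at 84.9 against 146 CPM in WT and at 68.9 against 138 CPM in the other library, where 1 member held 26.4% of its UMIs. The homing and egress list, which holds both kinds of receptor, had medians of −0.18 and −0.22.

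Among the other genes higher in members, the cytoskeletal genes Actn1 (0.89 and 1.25), Tubb2a (0.89 and 1.33) and Rflnb (0.88 and 1.56) ranked beside Lef1. Actn1 stood at 88.6 CPM in WT members and 116 CPM in the others, against 47.5 and 48.5 CPM in effector cells. Dusp10, a phosphatase of stress kinases, had 0.70 and 0.91. Kif1b, Rgcc and Rras2 had 0.66, 0.63 and 0.62 in WT and 1.28, 0.89 and 0.92 in the other library. Of 13 compared genes of the naive CD8 signature list, 1 was higher in WT and 7 in the library labelled Otud1-/-, and none was lower.

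Genes lower in members included cytotoxic granule and lysosome enzymes. Ctsw, a cathepsin of cytotoxic cells, had 46 UMIs in WT members, or 24.9 to 45.3 CPM, against 126 CPM in effector cells, and stood at 71.5 against 146 CPM in the other library, log2 ratios of −1.88 and −1.03. Ctsc, which activates granzymes, had −0.93 and −0.85, and Ctsd and Ctsb lay between −0.66 and −0.82. Ly6c2, a surface protein of memory and effector CD8 T cells, had −1.02 and −1.51. Gzma, a granzyme outside the rule, had 8 and 4 UMIs over all members, or 5.91 and 5.20 CPM, against 55.5 and 22.6 CPM in B cells, so it was at background. Id2, which favours effector differentiation, had −0.67 and −0.91, with 0.04 in the WT cells with Y-linked and no Xist transcripts. The effector and cytotoxic list had medians of −0.45 and −0.84, with 6 of 16 and 11 of 17 genes at least 1.5-fold lower. Crip1, Vim and S100a4 of this list had 0.02, 0.05 and −0.12 in WT and −0.57, −0.94 and −1.11 in the other library. Its 1 gene on the higher side was Ccl3 in the library labelled Otud1-/-, where 1 cell held 47.9% of the UMIs. Cd8a was also lower in members, with log2 ratios of −0.58 and −1.08.

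**Figure D3:**
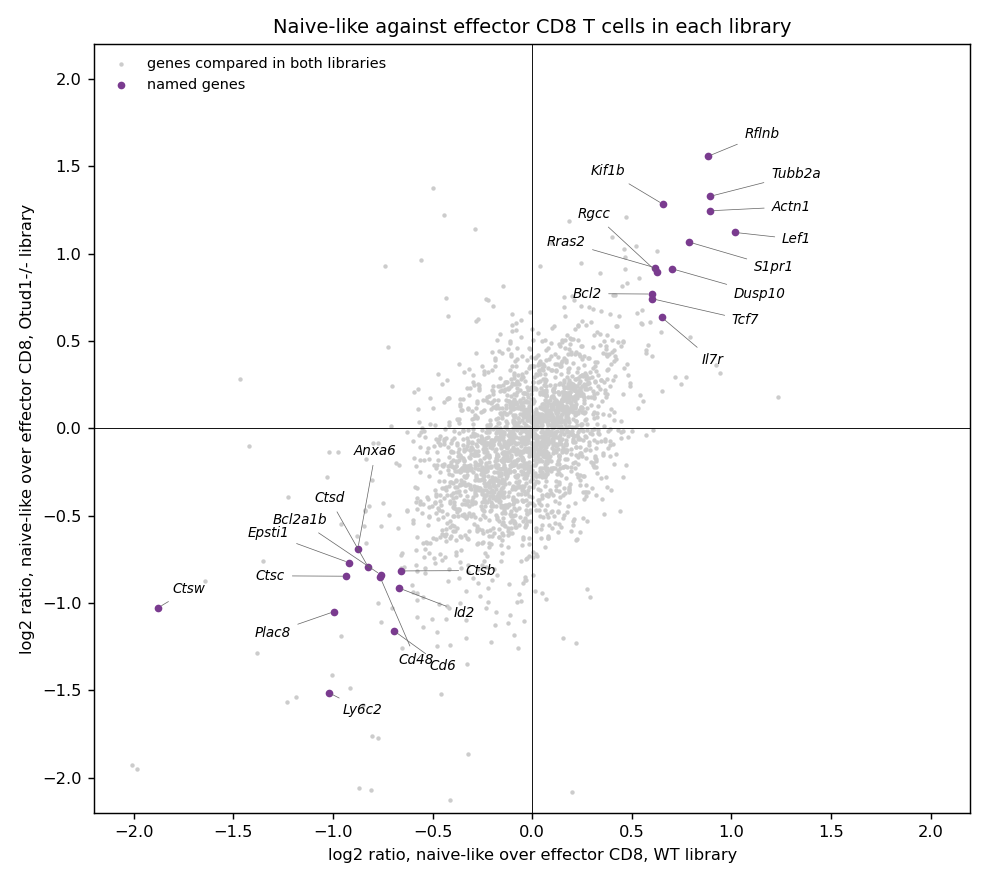
Log2 ratio of naive-like over effector CD8 T cells for each gene compared in both libraries, WT on the horizontal axis and the library labelled Otud1-/- on the vertical axis, with named genes in purple. 8 of 2321 genes lie outside the axes, which run from −2.2 to 2.2. Lef1, Actn1, Rflnb and S1pr1 stand at the upper right and Ctsw, Ly6c2 and Plac8 at the lower left.

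Further gene lists had the same sign in both libraries. The actin cytoskeleton list had medians of −0.38 and −0.32 with none of 20 genes past 1.5-fold, and the list of MHC class I and immunoproteasome genes had −0.31 and −0.30. Interferon-stimulated genes had −0.44 and −0.20. Cytosolic ribosomal protein genes had 0.17 and 0.16 over 81 genes. Cell cycle genes had −0.24 and −0.55. These values are set beside the medians over all genes given above, and are descriptions of these libraries.

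The effector group itself held naive transcripts, with Lef1 in 56.6% of its WT cells and 52.1% in the other library. With effector cells limited to at least 5 effector UMIs, 61 of 2694 genes were higher and 173 lower in WT members.

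Against CD4 T cells, the members had higher levels of Fam241a, Dapl1 and Klk8 and lower levels of Sh2d1a, Tbc1d4 and Cd6. CD4 cells met the T cell gate with a Cd4 UMI, no Cd8a or Cd8b1 UMI and the same effector limit, and numbered 241 and 231. In WT 43 of 2676 genes (1.61%) were higher in members and 103 (3.85%) lower, 5.46% either way. In the library labelled Otud1-/- 94 of 2440 (3.85%) were higher and 149 (6.11%) lower, 9.96% either way. Of the 2308 genes compared in both libraries, 32 were higher in WT and 76 in the other library, 16 of them in both. Lower were 89 and 137, with 47 in both. Of the WT genes, 1 higher and 4 lower ones went the opposite way in the other library. Fam241a, a gene of poorly known function on chromosome 3 (127869058 to 127896324, reverse strand), stood at 161 CPM in WT members against 26 UMIs, or 11.7 to 26.4 CPM, in CD4 cells, and at 218 against 35.3 CPM in the other library. The log2 ratios were 3.13 (2.57 to 3.81) and 2.61. A UMI was seen in 54.0% and 71.4% of members, 23 of 241 and 37 of 231 CD4 cells and 5.49% and 7.44% of B cells. In effector CD8 cells it stood at 112 and 106 CPM. Dapl1 had log2 ratios of 1.49 and 1.43, and Klk8, a serine protease, 1.49 and 0.88. Rras2, Gimap5 and Dnajc15 completed the named genes on the higher side, between 0.73 and 1.54.

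The genes of naive circulation did not set the members apart from CD4 cells as a group. Lef1 had log2 ratios of 0.84 and 0.41. Tcf7 had −0.20 (−0.53 to 0.12) and −0.21 (−0.54 to 0.12). Il7r in the library labelled Otud1-/- stood at 467 CPM (420 to 517) in members and 458 CPM (427 to 491) in CD4 cells, and S1pr1 at 281 (245 to 321) and 290 (266 to 317). These intervals overlapped. Lower in members were Sh2d1a, an adaptor used by helper T cells, at −1.67 and −2.17, Tbc1d4 at −1.24 and −1.80, and Cd6, a receptor that tunes T cell activation, at −1.02 and −1.10. Icos, a co-stimulatory receptor of helper cells, stood at 67.2 CPM against 228 CPM in WT and 108 against 368 CPM in the other library, where 1 member held 33.7% of its UMIs. The checkpoint and co-stimulation list had 4 of 5 genes lower in WT and 3 of 5 in the other library. The members were above CD4 cells in Ly6c2, with log2 ratios of 1.13 and 1.02, and in the NK receptor gene Klrd1, with 1.70 and 2.81. In CD4 cells 1 cell held 34.6% and 44.3% of the Ly6c2 UMIs and 16.2% and 26.7% of the Klrd1 UMIs.

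Between the 2 libraries, 10.5% of the genes compared in members differed at least 1.5-fold, and the counts of higher and lower genes changed with the set used. Relative to WT, 75 of 2431 genes were higher in the library labelled Otud1-/- (3.09%) and 181 lower (7.45%). With members of Y-linked and no Xist transcripts alone, 44 in WT and 78 in the other library, 205 of 1308 genes were higher and 42 lower, and the median over all genes moved from −0.05 to 0.18. Without the highest doublet scores 47 of 1949 were higher and 257 lower. Without members with at least 3 B cell UMIs or at least 10 UMIs of S100a8 and S100a9, which left 124 and 66 cells, 36 of 1489 were higher and 319 lower. Of the 75 and 181 genes, 32 and 45 had over 20% of their UMIs in 1 cell. Effector CD8 T cells had 51 of 2710 genes higher (1.88%) and 108 lower (3.99%), 5.87% either way. CD4 T cells had 41 of 2683 higher (1.53%) and 138 lower (5.14%), 6.67% either way.

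Of 7 naive markers set side by side between the libraries, Ccr7 and Klf2 had intervals that lay above 0 with all members used. Lef1 had a log2 ratio of 0.06 (−0.15 to 0.27), Dapl1 0.12 (−0.30 to 0.53), S1pr1 0.04 (−0.21 to 0.28) and Il7r 0.07 (−0.13 to 0.26). Each of these intervals includes 0, which does not show that the levels were equal. Ccr7 stood at 492 CPM in WT and 655 CPM in the other library, a ratio of 0.41 (0.24 to 0.58), and Klf2 at 629 and 780 CPM, 0.31 (0.16 to 0.46). Tcf7 had 0.36 (−0.01 to 0.73). In the cells with Y-linked and no Xist transcripts, Ccr7 stood at 540 CPM (453 to 639) in WT and 608 CPM (550 to 670) in the other library. Klf2 stood there at 730 CPM (629 to 844) and 743 CPM (679 to 811), so both pairs of intervals overlapped. In the same cells Lef1, S1pr1 and Il7r were lower in the library labelled Otud1-/-, the opposite sign to their ratios over all members. Lef1 stood at 480 CPM (398 to 574) in WT and 357 CPM (314 to 406) in the other library. S1pr1 stood at 337 CPM (269 to 417) and 255 CPM (218 to 296), and Il7r at 583 CPM (493 to 686) and 471 CPM (420 to 526). The reading of these markers between libraries thus depended on the set of cells used. Dapl1 stood at 123 and 103 CPM and Tcf7 at 107 and 127 CPM. Among the 18 compared factors none passed 1.5-fold, and the largest ratios were those of Klf3 at 0.52, Bcl11b at 0.52 and Zeb1 at 0.44.

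The naive CD8 signature list and the T cell receptor signalling list had the highest medians in members of the lists with at least 10 genes compared. The first had 0.35 over 14 genes, with Cd27 and Pik3ip1 past 1.5-fold, and lay between 0.20 and 0.39 under the other settings that could be fitted. The second had 0.31 over 16 genes with none past 1.5-fold, and lay between 0.07 and 0.39. It held the proximal kinase gene Lck and the adaptor gene Lat, each at 0.54. In CD4 cells the same lists had medians of 0.32 over 12 genes and 0.21 over 19, and in effector CD8 cells −0.06 over 10 and 0.00 over 17, so nothing particular to the members was read from them.

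**Figure D4:**
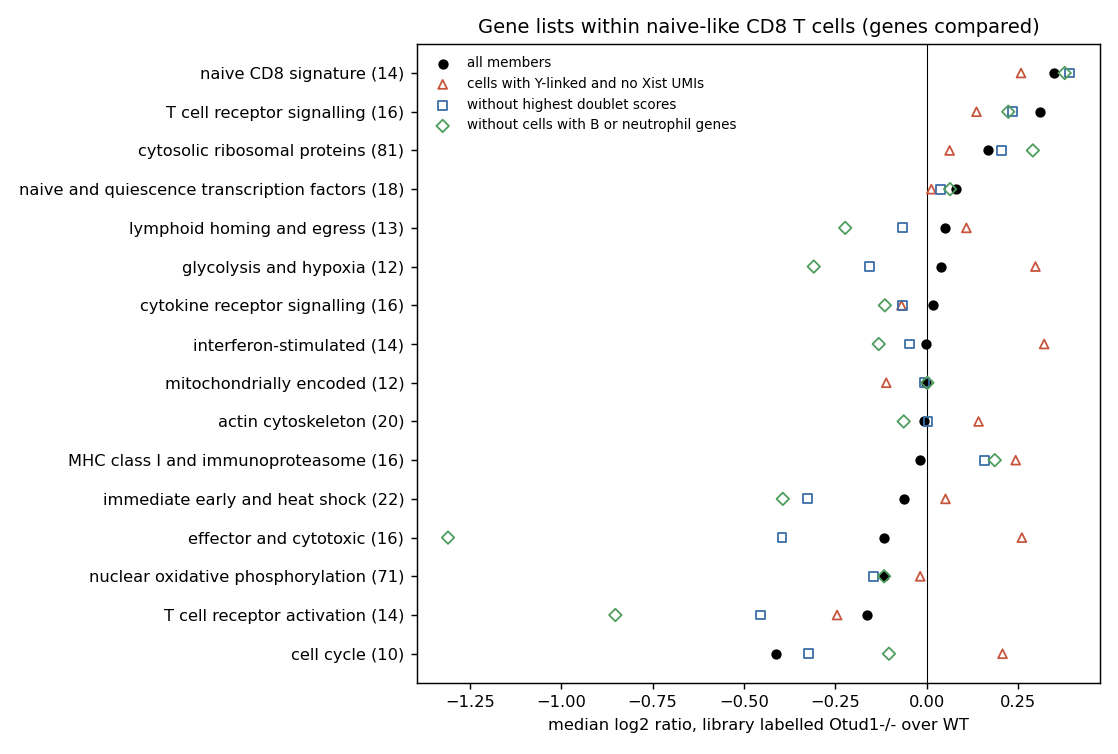
Median log2 ratio between libraries, Otud1-/- label over WT (horizontal axis), for gene lists within naive-like CD8 T cells, with the number of genes compared in brackets. Black points use all members, and open symbols use 3 smaller sets of cells. The naive CD8 signature and receptor signalling lists lie above 0 in all 4, whereas the effector and cell cycle lists change sign between sets.

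Cd27, a co-stimulatory receptor of naive and memory T cells, stood at 60.6 CPM in WT members and 104 CPM in the others, with a log2 ratio of 0.77 (0.32 to 1.24) and 0.15 in the cells with Y-linked and no Xist transcripts. Rgcc, a cell cycle regulator, stood at 137 and 265 CPM, 0.95 (0.66 to 1.25), with 0.30 in those cells. Klk8 stood at 74.6 and 133 CPM, 0.83 (0.42 to 1.24), and had 0.87 in them. It had a UMI in 37.0% and 65.3% of members and 1.61% and 0.646% of B cells, and in effector cells the log2 ratio was 0.84. Klk8 lies on chromosome 7 from 43797577 to 43803826, forward strand. Ctsw led the list at 1.06 (0.48 to 1.67) on 46 and 55 UMIs, with 0.42 in the cells with Y-linked transcripts. Trim35, Hadhb, Wdr33, Nudt4, Strap, Mxd4, Tnfrsf18 and Pcmt1 made up the rest of the highest 12, between 0.79 and 0.94. Of these Tnfrsf18, a co-stimulatory receptor, stood at 55.4 and 96.2 CPM. Nudt4 had −0.41 when each cell was weighted equally.

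**Figure D5:**
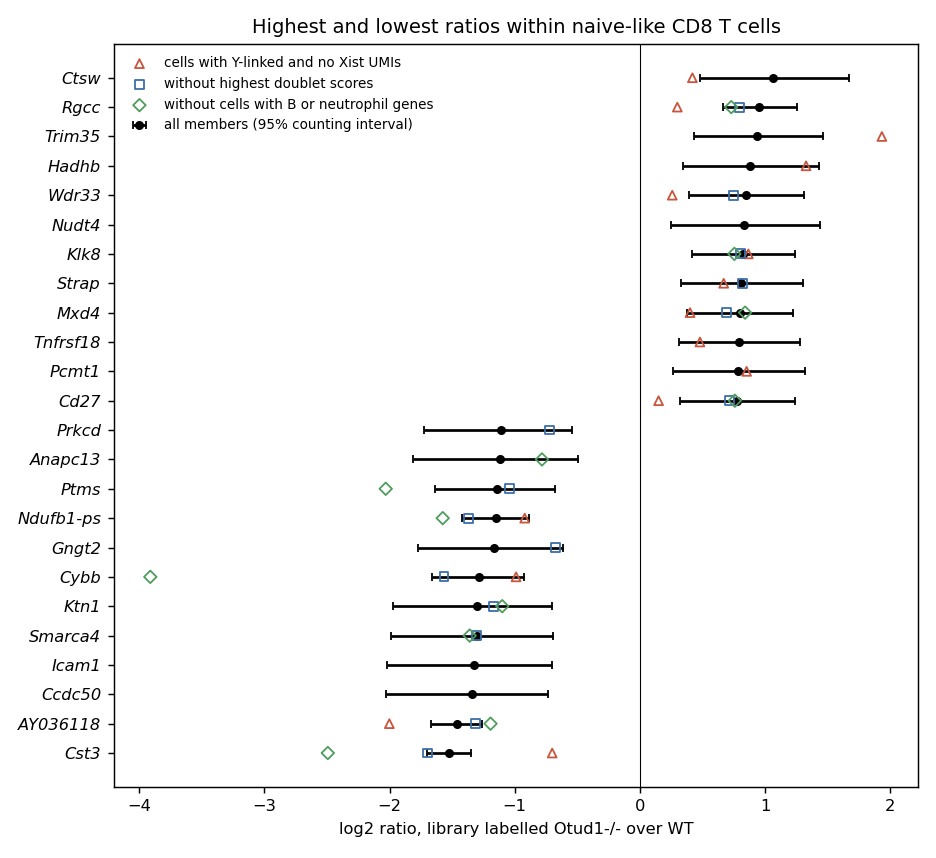
Log2 ratio between libraries, Otud1-/- label over WT (horizontal axis), for the 12 highest and 12 lowest named genes in naive-like CD8 T cells. Black points with exact 95% counting intervals use all members, open symbols use smaller sets of cells, and a missing symbol means that the gene did not reach the minimum level there. Klk8 keeps about its value in each set, whereas Cst3 and Cybb spread widely.

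The lowest ratio was that of Cst3, a secreted protease inhibitor abundant in myeloid and dendritic cells, at 1213 CPM in WT members and 421 CPM in the others, −1.53 (−1.70 to −1.35). Cybb, the catalytic subunit of the phagocyte oxidase, stood at 250 and 103 CPM, −1.28 (−1.66 to −0.93). Both had the direction of the monocyte and macrophage marker sum given above, whereas the neutrophil sum went the other way. The part of such transcripts in Cst3 and Cybb was not tested. In effector CD8 cells the log2 ratios were −0.27 for Cst3 and −0.51 for Cybb, and in CD4 cells −0.07 and −0.77. Cst3 had −0.70 in the cells with Y-linked transcripts and −2.49 without the cells with B cell or neutrophil genes, and Cybb −3.91 in the latter. AY036118 and Ndufb1-ps, with −1.46 and −1.15, were also low in effector CD8 cells, at −0.80 and −0.69, and in CD4 cells, at −0.75 for each. Ccdc50, Icam1, Smarca4, Ktn1, Gngt2, Ptms, Anapc13 and Prkcd completed the lowest 12, between −1.11 and −1.34. Of these Icam1 encodes an adhesion receptor and Smarca4 a chromatin remodeller.

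Il2rb, the shared receptor chain for interleukins 2 and 15 and a marker of memory-like CD8 T cells, stood at 279 CPM in WT members and 130 CPM in the others, −1.10 (−1.44 to −0.78). It had −0.32 in effector CD8 cells and −1.46 in CD4 cells. Of the 6 compared genes of the memory-like CD8 list Il2rb was the only 1 past 1.5-fold, and the list's median was −0.19. Its other genes included Klrd1 at 0.56 (0.16 to 0.97) and Ly6c2 at −0.02 (−0.30 to 0.25). Itga4, an integrin chain, stood at 184 and 97.5 CPM, −0.91 (−1.31 to −0.54). Cd44, an adhesion receptor that increases on antigen-experienced T cells, had a UMI in 86 of 200 WT members (43.0%) and 24 of 98 others (24.5%). After thinning to 1000 UMIs the shares were 15.1% (10.4 to 20.8) and 8.16% (3.59 to 15.5), intervals that overlap. B cells, which also use this gene, had 14.5% and 11.1%. Isg15 stood at 48.7 and 140 CPM, but 1 cell held 21.2% and 26.9% of its UMIs.

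Mki67 or Top2a, genes of dividing cells, had a UMI in 55 WT members (27.5%, 21.4 to 34.2) and 9 others (9.18%, 4.29 to 16.7). After thinning to 1000 UMIs the shares were 8.54% (5.06 to 13.3) and 1.02% (0.0258 to 5.55). The 9 cells were deep, with a median of 15237 UMIs. The same order was seen in effector CD8 cells, at 12.6% and 6.91%, and in CD4 cells, at 26 of 236 and 10 of 231 thinned cells. The cell cycle list had a median of −0.41 over 10 genes with 3 past 1.5-fold lower, Mki67, Hmgb2 and Tuba1b, while Pcna at 0.46 and Cdkn2d at 0.58 lay on the higher side. It had a median of 0.21 in the cells with Y-linked and no Xist transcripts. For Mki67, 1 cell held 56.2% of the UMIs in the library labelled Otud1-/-. The immediate early and heat shock list had −0.06 with 4 of 22 genes lower, among them Fosb at −0.86, Jun at −0.69 and Fos at −0.67. These 3 stood below 10% of their level in another cell class of the same library, so they may be background RNA from other cells. The effector and cytotoxic list had −0.12, with 1 of 16 genes higher and 2 lower, 0.26 in the cells with Y-linked transcripts and −1.31 without the cells with B cell or neutrophil genes.

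The cytosolic ribosomal protein list had a median of 0.17 over 81 genes, with members on both sides of 0, and medians of 0.19 in effector CD8 cells and 0.23 in CD4 cells. In the naive-like cells Rps28, Rps29 and Rpl38 were the 3 genes past 1.5-fold, all lower, at −0.73, −0.72 and −0.60. The same 3 genes had the largest absolute ratios of the list in effector CD8 and in CD4 cells. There 2 genes of the list were past 1.5-fold lower in each group, so the difference was not particular to the members. Rps29 stood at 10211 CPM in WT members and 6188 CPM in the others. The 12 mitochondrially encoded genes had a median of 0.00 and the 71 compared nuclear genes of oxidative phosphorylation −0.12.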

How the data were processed

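The authors deposited UMI counts per gene and barcode for both libraries, made with Cell Ranger. The submitters' processing notes name Cell Ranger 5.0.0, Seurat 3.2.3 and build mm10, while the deposited matrix header names Cell Ranger 6.0.1. Each matrix lists 32285 genes and only barcodes that had been called as cells. Members, effector CD8, CD4 and B cells were gated by UMIs as in the report, and the members and the 22 gene lists were chosen with earlier results of these data known. Counts were summed per group and library and scaled to CPM. Log2 ratios used a prior of 0.5 CPM. Intervals are exact binomial, Poisson or Clopper-Pearson intervals at 95%. For the comparison between libraries, counts were also simulated with counting error only, and intervals covered 95.4% of true values over 2421 genes. The simulation held no variation between cells or animals. It checks the calculation and cannot show how well the intervals suit these data.

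For shares, each cell was thinned without replacement to 1000 UMIs. Doublet scores came from simulated pairs, 2 per cell, at 0.8% per 1000 barcodes, and 1408 and 526 barcodes with the highest scores were left out as an alternative, not in the values given first. A gene may be background where it stood below 10% of its CPM in a cell class of at least 20 cells in that library.

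Named genes between libraries are the 12 highest and 12 lowest ratios. Over effector cells they are the 12 each way, and over CD4 cells the 6 each way, ranked by the library with the smaller ratio. Rule genes, immunoglobulin and receptor segments, sex-linked and predicted genes, genes with over 20% of UMIs in 1 cell and genes that may be background were left out. The 3 genes of each list with the largest ratios, the markers and Otud1 were also open to naming. Some genes of the lists are not reported here by name. Coordinates are from GENCODE vM21. Analyses used numpy 2.4.6, scipy 1.17.1, pandas 2.3.3, scikit-learn 1.9.0, matplotlib 3.10.9, R 4.3.3 and, for TMM factors, edgeR 4.0.16.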

Additional observations from a re-analysis of the deposited data

How the results depend on the processing

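With 1 library per genotype and 98 to 200 members, counting error and the mix of animals limit every value between libraries. No paired analysis was possible because each genotype has 1 library. Of 407 values that answer a comparison and were recomputed under another setting, 292 were classed as the same and 115 as moved. Another set held the named genes and also the median over all genes. Of its 1179 values, 1063 were classed as the same, 113 as moved and 3 as reversed. The median over all genes was −0.05 with the main setting and kept its sign under 12 of 15 other settings. It was not among the 3 reversed values, so these classes do not count every change of sign. Otud1 gave no value after thinning before the gate. Equal cell weights, the stricter effector group and the removal of cells with B cell or neutrophil genes were chosen after seeing the data. The cause of each move was not tested. In the values below, "higher" and "lower" are counts of genes past 1.5-fold, and pairs of numbers are higher and lower counts where both moved.

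With members of Y-linked and no Xist transcripts, the libraries differed by 205 higher and 42 lower genes of 1308 compared. The list medians were 0.26 for effector and cytotoxic, 0.051 for immediate early and heat shock, 0.32 for interferon-stimulated, 0.24 for MHC class I, 0.30 for glycolysis, 0.21 for cell cycle, 0.14 for actin, 0.062 for ribosomal and −0.018 for oxidative phosphorylation genes. Over effector cells in WT, Tcf7 reversed to −0.20 and Id2 to 0.037. Over CD4 cells 165 of 941 genes were lower in WT, and the members' share of kept barcodes was 1.75% in the library labelled Otud1-/-.

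Without the highest doublet scores 47 of 1949 genes were higher between libraries. List medians were −0.067 for homing, −0.40 for effector, −0.46 for receptor activation and −0.33 for immediate early genes. Over effector cells 87 of 2542 genes were higher in WT and 336 of 1950 lower in the other library. Over CD4 cells 98 of 2584 were higher in WT, and 61 higher and 261 lower of 2036 in the other library. The WT share of kept barcodes was 1.36%.

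Without cells with B cell or neutrophil genes 36 of 1489 genes were higher and 319 lower between libraries. List medians were −0.22 for homing, −0.12 for cytokine receptor, −1.31 for effector, −0.85 for receptor activation, −0.39 for immediate early, −0.31 for glycolysis, −0.064 for actin and 0.29 for ribosomal genes.

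With no effector UMI allowed, list medians were −0.094 for naive factors, 0.25 for interferon-stimulated, 0.11 for glycolysis and −1.06 for cell cycle genes. Over effector cells 186 of 2438 genes were lower in WT. Over CD4 cells 70 were higher and 169 lower of 2472 in WT, and 250 of 1970 lower in the other library. Shares were 0.869% of kept barcodes and 4.62% of T cells in WT, and 0.735% and 4.48% in the other library.

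With Cd8a also required and Cd4 absent, 28 of 1031 genes were higher between libraries. List medians were −0.31 for homing, −0.18 for cytokine receptor and −0.64 for receptor activation genes. Over effector cells the counts were 72 and 285 of 2023 in WT and 36 and 459 of 1759 in the other library. Over CD4 cells they were 68 and 263 of 2076, and 25 and 343 of 1782. Shares were 0.517% and 2.74% in WT, and 0.577% and 3.51% in the other library.

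Thinning to 1000 UMIs before the gate left 21 and 14 members and 76 genes between libraries, with 1 higher and 7 lower, and a ribosomal median of 0.019. Over effector cells 15 of 106 genes were lower in WT, with 19 higher and 11 lower of 79 in the other library. Over CD4 cells the counts were 16 and 14 of 107 in WT, and 8 and 1 of 73 in the other library. Shares were 0.183% and 2.93% in WT, and 0.211% and 3.95% in the other library. At most 5% mitochondrial UMIs gave 70 of 2637 genes higher over CD4 cells in WT and a share of 1.72% in the library labelled Otud1-/-.

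With each cell weighted equally 307 of 2431 genes were lower between libraries and Nudt4 reversed to −0.41. List medians were −0.62 for effector, −0.46 for receptor activation, −0.27 for interferon-stimulated and 0.24 for ribosomal genes. Over effector cells the WT counts were 103 and 182 of 2693. Over CD4 cells 178 of 2676 were lower in WT and 243 of 2440 in the other library. Without each gene's highest cell 48 of 2205 were higher between libraries, and the effector median was −0.30. In the library labelled Otud1-/-, 57 of 2250 genes were then higher over effector cells and 60 of 2255 over CD4 cells. With TMM factors the glycolysis median was 0.069. With an effector group of at least 5 UMIs, 61 of 2694 genes were higher and 173 lower in WT. In the other library 378 of 2525 were lower.

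A minimum of 100 CPM tested fewer genes and gave 30 and 77 of 1274 between libraries. Over effector cells it gave 15 and 55 of 1318 in WT and 43 and 97 of 1296 in the other library. Over CD4 cells it gave 16 and 41 of 1323, and 51 and 58 of 1293. A minimum of 20 CPM and 20 UMIs tested more and gave 302 and 543 of 5157 between libraries. Over effector cells it gave 134 and 321 of 5475, and 288 and 555 of 5115. Over CD4 cells it gave 203 and 349 of 5478, and 297 and 437 of 5094.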
